A study of Rattus norvegicus with 12 samples.

Results

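The 47 genes described here encode the enzymes that make, use and recycle glutathione, together with the superoxide dismutases, catalase, the peroxiredoxins, the heme oxygenases and Nfe2l2, the transcription factor Nrf2. They were taken from a list by gene symbol, with 1 probe set per gene, that of the highest mean over the 12 arrays. Of the 47 genes, 45 were measured by a probe set that carries exactly 1 symbol, out of 10411 genes with such a probe set. Gsta2 and Prdx1 were present only on probe sets with several symbols and are not described.

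Glutathione is a small peptide with a free thiol that serves as the main soluble reductant of the cell. Glutathione peroxidases and peroxiredoxins spend it, or thioredoxin, to reduce peroxides, and glutathione transferases couple it to reactive compounds. Nrf2 is released from its inhibitor Keap1 under oxidant stress and binds the antioxidant response element in front of many of these genes. Beta cells of rodents are known for low amounts of several peroxide-removing enzymes, and streptozotocin is a toxin that enters them through the glucose transporter Slc2a2.

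Whole pancreas of adult male Wistar rats was compared on Affymetrix RAE230-A arrays in 4 groups. Diabetic treated (DT) rats had received streptozotocin and then sodium tungstate, at 0.7 g/L for week 1 by the labels, then at 2 g/L for 4 to 5 weeks. Diabetic untreated (DU) rats had received streptozotocin alone and were kept for 5 to 6 weeks. Healthy treated (HT) rats had received tungstate alone on the same labelled scheme, and healthy untreated (HU) rats had received neither. By the study's methods treated rats drank the solution freely, and the daily tungstate intake was higher in diabetic than in healthy rats. Each group had 3 arrays, each array held RNA pooled from 3 rats, and every p-value therefore measures the spread between pools and not between rats. The values are log2 expression levels from RMA, a procedure that normalizes the arrays to one another, so that a difference of 1 is a 2-fold change.

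Differences between groups were tested with limma's moderated test over 15866 probe sets, and a gene was called at a Benjamini-Hochberg adjusted p under 0.05 over all of them. The arrays had 6 scan days and 3 chip lots, and DU and HU were never scanned on the same day. In whole tissue, fewer cells of a type and less RNA per cell cannot be told apart. As a background for the marker counts, the test called 3.2% of all probe sets between DU and HU. It called 1.32% between DT and HU and 1.12% between the 2 diabetic groups. Of 13 beta cell and endocrine markers, 6 were called lower and 1 higher (Sst, somatostatin) in DU vs. HU (53.8%). Between DT and HU, 6 of these markers were called lower (46.2%). In DT vs. DU, 1 of these markers was called higher (7.69%), namely Ins2, an insulin gene (1.45, adjusted p = 0.0387). Their mean log2 level lay between 7.21 and 8.11 in DT, between 7.35 and 7.47 in DU, between 8.34 and 8.60 in HT and between 8.43 and 8.63 in HU. Of 11 acinar and 10 duct markers, 1 each was called in DU vs. HU, both lower, namely Amy2a3, an amylase (log2 difference −5.18), and Tff2, a secreted trefoil peptide (−5.36), and the median differences of the lists were 0.00 and 0.03. Without Amy2a3 the mean of the acinar markers lay between 13.21 and 13.32 in DU and between 13.21 and 13.30 in HU, and without Tff2 that of the duct markers lay between 8.03 and 8.09 in DU and between 7.96 and 8.07 in HU. In DT vs. DU, 1 of 11 acinar markers (9.09%) was called, Amy2a3, which was higher (5.01). Of the 10 duct markers 2 were called there (20%), Tff2 higher (4.96) and Spp1 lower (−0.53, adjusted p = 0.0319). Of 14 stellate cell, fibroblast and matrix markers, 3 were called lower in DT vs. HU (Col1a2, Col3a1 and Postn) and none in DT vs. DU, with median log2 differences of −0.45 and −0.36. The mean of that list lay between 7.05 and 7.66 in DT, between 7.54 and 7.77 in DU and between 7.52 and 7.94 in HU. Of 4 erythroid markers, 1 was called in DU vs. HU, namely Hbb, a hemoglobin chain of red cells (−1.19, adjusted p = 0.0364). Between DT and HU, Hbb differed by −1.17 (adjusted p = 0.062). The others, Alas2, Ahsp and Slc4a1, differed by −0.38, −0.19 and 0.03 in DU vs. HU. In DT vs. HU they differed by −0.42, −0.15 and 0.17. None of 14 leukocyte and 5 endothelial markers was called in DU vs. HU, DT vs. DU or DT vs. HU. In DT vs. HU, 4 leukocyte markers (28.6%) had an unadjusted p under 0.05, Cd74, RT1-Da and Cd79b lower and Cd4 higher. Of the endothelial markers 2 did (40%), Kdr and Pecam1, both lower, with 16.6% over all probe sets. The mean of the leukocyte markers lay between 6.93 and 7.73 in DT and between 7.314 and 7.865 in HU. The part of these marker shifts in the results below was not tested.

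In DU vs. HU, 5 of the 45 genes were higher (Gpx1, Gstt3, Gstk1, Glrx and Hmox2) and 1 was lower (Gstp1). Over all probe sets 3.2% were called in this comparison, 1.47% higher and 1.73% lower, against 13.3% of the listed genes. The list was chosen with earlier results of these data known, so its shares here and below are no test of it. The arrays of the groups did not overlap for 12 higher and 8 lower genes, 44.4% of those measured, where 29.4% of all probe sets had no overlap, 12.5% higher and 16.9% lower. The median log2 difference over the 45 genes was 0.03, beside −0.02 over all probe sets, so the changes did not go one way.

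In DT vs. DU, 1 of the 45 genes was higher (Gstp1) and 2 were lower (Gstt3 and Gstm5), 6.67% of the genes, while 1.12% of all probe sets were called, 0.655% higher and 0.46% lower. Arrays did not overlap for 6 higher and 8 lower genes (31.1%, with 13.9% over all probe sets, 7.58% higher and 6.28% lower). In DT vs. HU, Gpx1 and Gstk1 were higher and Gstm5 was lower, 6.67% again, and 1.32% of all probe sets were called, 0.756% higher and 0.561% lower. Arrays did not overlap there for 7 higher and 6 lower genes (28.9%), with 21.1% over all probe sets, 9.62% higher and 11.4% lower. No listed gene was called in HT vs. HU by limma, where 0.0063% of all probe sets were, and 3 of the 45 (6.67%) had an unadjusted p under 0.05, with 5.41% over all probe sets. Arrays of HT and HU did not overlap for 1 gene (Gsta1, higher), with 5.74% of all probe sets higher and 5.83% lower. At a B-statistic above 0, the log odds of a difference and the criterion of the study's methods, 3 genes were called in DT vs. DU (1.05% of all probe sets) and 4 in DU vs. HU (1.82%). DT vs. DU and DU vs. HU share the DU arrays, which alone can give a gene opposite signs in them, and all but DT vs. DU share the HU arrays.

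**Figure D1:**
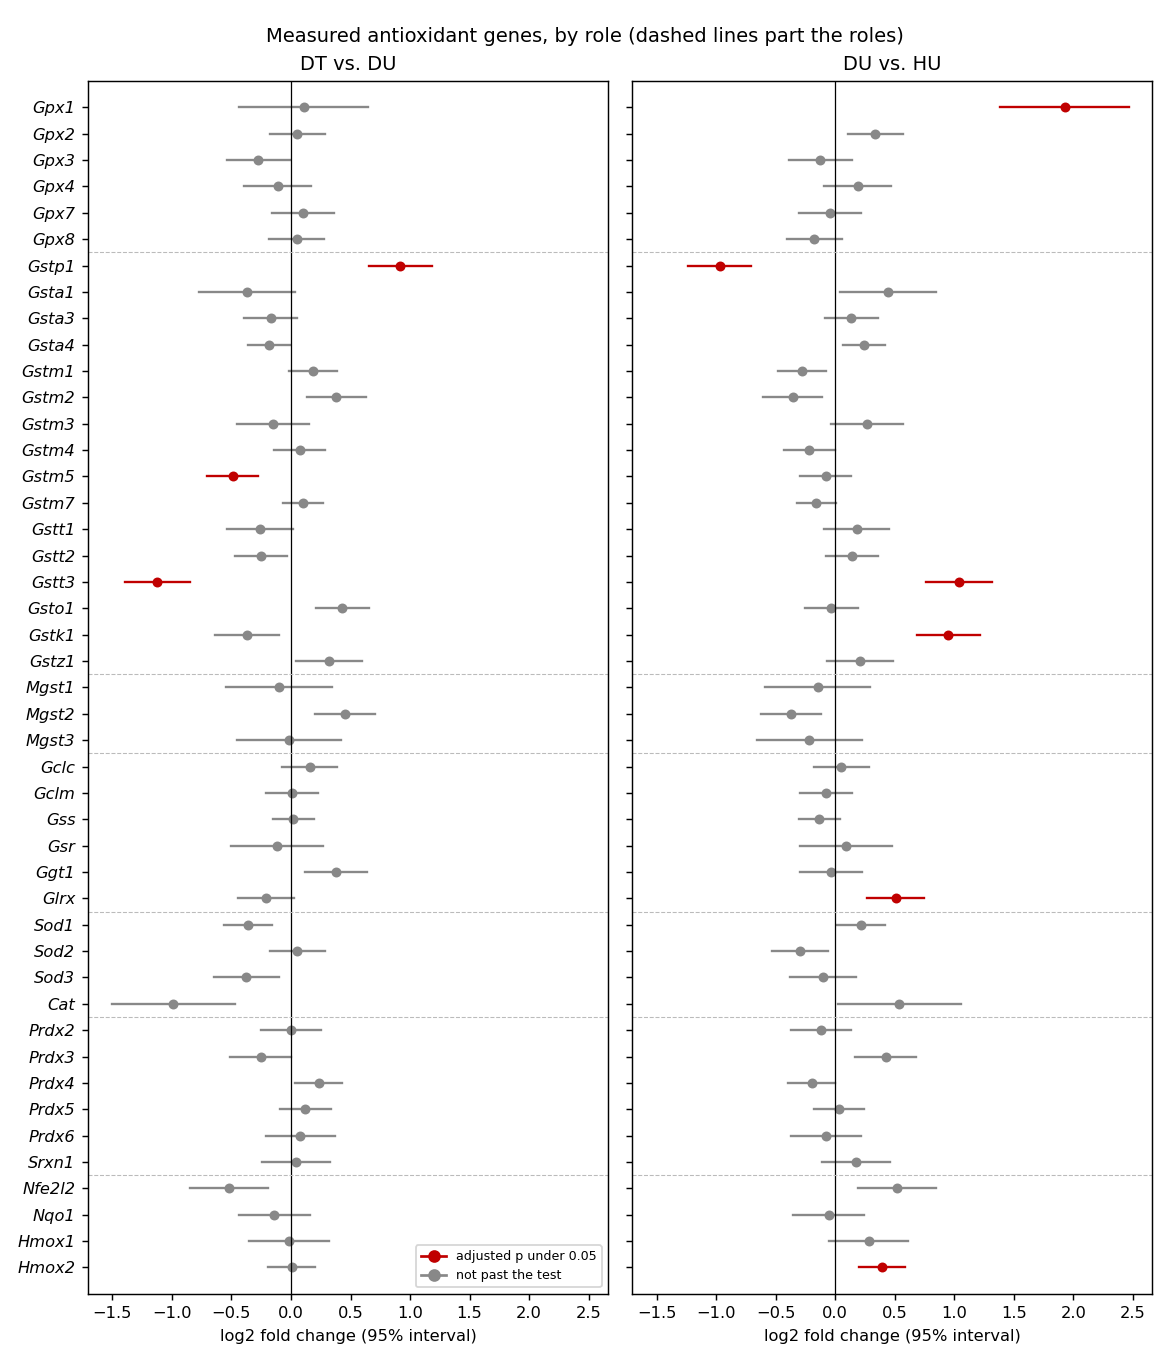
Log2 fold change (x axis, with its 95% interval) of each of the 45 measured genes in DT vs. DU (left) and DU vs. HU (right), ordered by role, with genes past an adjusted p of 0.05 in red. Gpx1 stands apart on the right at 1.93 and lies at 0.11 on the left, whereas Gstp1 and Gstt3 lie on opposite sides of 0 in the panels.

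Gpx1, the abundant cytosolic selenoprotein that reduces hydrogen peroxide with glutathione, showed the widest difference of the list. Its log2 level was 12.09, 11.80 and 11.87 in the DT pools, 11.88, 11.65 and 11.91 in the DU pools, 9.88, 10.67 and 11.16 in the HT pools and 10.23, 9.52 and 9.92 in the HU pools. All 6 diabetic pools lay above all 6 healthy pools, and the HT pools overlapped the HU pools and spread over more than 1 log2 unit. Relative to HU, Gpx1 was 3.80-fold higher in DU (log2 difference 1.93 ± 0.25 SE, adjusted p = 0.000841) and 4.09-fold higher in DT (2.03 ± 0.25, adjusted p = 0.00151). Between DT and DU the log2 difference was 0.11, with a 95% interval from −0.43 to 0.65. In HT vs. HU it was 0.68 (interval 0.14 to 1.22, adjusted p = 0.871).

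Within chip lot 1, the single batch that held both DU and HU arrays, Gpx1 differed by 1.85 between the 2 DU arrays and the HU array. The call of DU vs. HU was kept with a term for chip lot (1.62, adjusted p = 0.0183) and was lost with a term for scan day (1.00, adjusted p = 0.704), a fit that has to link DU to HU through the treated groups. The call of DT vs. HU was lost in that fit as well (1.07, adjusted p = 0.695). None of the 6 genes called in DU vs. HU kept its call with a term for scan day.

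The other 5 measured glutathione peroxidases were not called in any comparison. Gpx2, the epithelial and mainly gastrointestinal form, was at 6.68, 6.80 and 6.66 in DT, 6.71, 6.64 and 6.63 in DU and 6.23, 6.18 and 6.56 in HU. Its DU pools did not overlap the HU pools, with a log2 difference of 0.34 (adjusted p = 0.103). Gpx3, the form secreted to plasma, had a log2 difference of −0.40 in DT vs. HU (adjusted p = 0.130). Gpx4, which reduces lipid hydroperoxides in membranes, and Gpx7 and Gpx8, which act in the endoplasmic reticulum, had log2 differences between −0.18 and 0.19 in DU vs. HU. Gpx8 was among the dimmest 30% of probe sets.

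The 16 measured cytosolic and mitochondrial glutathione transferases held all 3 listed genes called in DT vs. DU. In DU vs. HU, 2 were higher and 1 was lower (18.8%, with 3.2% over all probe sets). In DT vs. DU, 1 was higher and 2 were lower (18.8%, with 1.12% over all probe sets). In each comparison 13 were not called. In DU vs. HU, 8 of the 16 (50%) had an unadjusted p under 0.05, with 20.2% over all probe sets. In DT vs. DU, 9 of the 16 (56.2%) had one, with 9.89% over all probe sets.

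Gstp1, the pi class transferase, is an enzyme of many epithelia that inhibits the stress kinase Jnk as well as conjugating glutathione. It read 10.56, 10.08 and 10.34 in the DT pools, 9.58, 9.37 and 9.27 in the DU pools, 10.25, 10.23 and 10.32 in the HT pools and 10.37, 10.23 and 10.53 in the HU pools. The 3 DU pools were the lowest of the 12, and the DT pools overlapped both healthy groups. Gstp1 in DT exceeded its DU level 1.89-fold (log2 difference 0.92 ± 0.12 SE, adjusted p = 0.0012), and in DU it was 1.96-fold below HU (−0.97 ± 0.12, adjusted p = 0.000622). The interval of DT vs. HU ran from −0.31 to 0.21, and the log2 difference in HT vs. HU was −0.11 (adjusted p = 0.906).

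Within scan day 1, Gstp1 differed by 0.74 between DT and DU, within chip lot 1 by 0.84 and within chip lot 3 by 1.07. In DU vs. HU it differed by −1.06 within chip lot 1. With a term for scan day the call was lost in DT vs. DU (0.74, adjusted p = 0.120) and in DU vs. HU (−1.01, adjusted p = 0.400).

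Gstt3, a theta class transferase, ran the other way. Its level was 8.03, 8.00 and 8.49 in the DT pools, 9.32, 9.21 and 9.35 in the DU pools, 8.38, 8.28 and 8.57 in the HT pools and 8.30, 8.09 and 8.37 in the HU pools. The 3 DU pools stood above the other 9, which overlapped one another. Gstt3 in DT was 2.18-fold below DU (−1.12 ± 0.13, adjusted p = 0.000297) and 2.05-fold higher in DU than in HU (1.04 ± 0.13, adjusted p = 0.000512). The log2 difference between DT and HU was −0.08 (interval −0.36 to 0.19).

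Gstt3 differed between DT and DU by −1.31 within scan day 1, by −1.25 within chip lot 1 and by −0.86 within chip lot 3. Between DU and HU it differed by 0.90 within chip lot 1, and by 1.18 with a term for scan day (adjusted p = 0.144). Gstt1 and Gstt2, the other theta class members, lie close to Gstt3 on chromosome 20. Their log2 differences were −0.26 and −0.25 in DT vs. DU and 0.18 and 0.14 in DU vs. HU, and neither gene was called.

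The promoters of the 3 called genes with the widest differences between groups are shown because 2 of them moved in opposite directions in DU pancreas and the third did not differ between DT and DU. They are the 250 bases before the annotated start, from RefSeq on GRCr8, at chr1:210769706-210769955 (minus strand) for Gstp1, chr20:12874368-12874617 (plus strand) for Gstt3 and chr8:117905212-117905461 (plus strand) for Gpx1. Capitals mark matches on either strand to the antioxidant response element core, TGACNNNGC, or to the AP-1 site, TGANTCA.
Gstp1: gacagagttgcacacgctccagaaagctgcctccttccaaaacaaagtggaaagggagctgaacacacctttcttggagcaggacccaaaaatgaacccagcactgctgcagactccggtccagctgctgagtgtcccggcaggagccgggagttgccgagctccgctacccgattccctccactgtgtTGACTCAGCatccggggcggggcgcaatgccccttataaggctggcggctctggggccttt
Gstt3: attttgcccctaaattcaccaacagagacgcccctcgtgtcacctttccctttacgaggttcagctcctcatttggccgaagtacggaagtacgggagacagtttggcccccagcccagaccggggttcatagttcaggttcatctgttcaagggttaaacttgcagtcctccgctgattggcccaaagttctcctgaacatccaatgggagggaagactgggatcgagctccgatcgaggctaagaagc
Gpx1: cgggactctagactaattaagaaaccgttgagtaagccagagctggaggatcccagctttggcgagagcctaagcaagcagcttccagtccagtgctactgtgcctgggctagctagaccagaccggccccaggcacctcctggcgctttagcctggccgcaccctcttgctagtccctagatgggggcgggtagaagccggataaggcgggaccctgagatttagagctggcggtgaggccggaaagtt

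The run in the Gstp1 promoter matched both motifs at once, since they overlap there, and began 61 bases before the start. The Gstt3 and Gpx1 windows held neither. Over the 43 promoters found for 39 of the listed genes, TGACNNNGC was present in 10 (23.3%) and TGANTCA in 6 (14.0%), beside 10.1% and 6.3% of the 33469 promoters of the table. Among the genes called in any comparison, Gstp1, Gstm5 and Hmox2 held the first motif and Gstp1, Gstm5 and Glrx the second. A match of these letters describes the sequence and is not evidence of binding. The list was chosen to hold known targets of Nrf2, so its share of the first motif is no test of the list. Prdx1, which is not described here, is counted for both motifs.

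Gstk1, the kappa class enzyme of mitochondria and peroxisomes, was at 8.37, 8.02 and 8.12 in DT, 8.72, 8.43 and 8.48 in DU, 7.51, 7.71 and 7.95 in HT and 7.58, 7.51 and 7.69 in HU. The 6 diabetic pools lay above the 6 healthy ones, with DU the highest group and DT between DU and HU without overlap. Relative to HU, Gstk1 was 1.93-fold higher in DU (0.95 ± 0.12, adjusted p = 0.000841) and 1.49-fold higher in DT (0.58 ± 0.12, adjusted p = 0.0404). The difference between DT and DU was −0.37 (interval −0.64 to −0.10, adjusted p = 0.277). Within chip lot 1, Gstk1 differed by 0.89 in DU vs. HU and by 0.51 in DT vs. HU. With a term for scan day the log2 difference was 0.10 in DT vs. HU (adjusted p = 0.96) and 0.63 in DU vs. HU (adjusted p = 0.582), and neither was called. The call of DT vs. HU was also lost with a term for chip lot (0.42, adjusted p = 0.265), with only the arrays compared (adjusted p = 0.077) and in 7 of the 12 fits without 1 array (DT1, DU2, DU3, HT2, HU1, HU2 or HU3, adjusted p up to 0.132).

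Gstm5, a mu class transferase, was lowest in the treated diabetic pancreas. Its level was 6.23, 6.22 and 6.10 in DT, 6.86, 6.47 and 6.69 in DU, 6.78, 6.70 and 6.75 in HT and 6.76, 6.64 and 6.86 in HU. The 3 DT pools were below the other 9, and the log2 difference was −0.49 ± 0.10 in DT vs. DU (adjusted p = 0.0285) and −0.57 ± 0.10 in DT vs. HU (adjusted p = 0.0148). Between DU and HU it was −0.08 (interval −0.29 to 0.13). Within scan day 1, chip lot 1 and chip lot 3 the difference between DT and DU was −0.64, −0.44 and −0.58. The call in DT vs. DU was lost in 6 of the 12 fits without 1 array (DT1, DT2, DT3, DU1, DU3 or HU1), with an adjusted p up to 0.147, and that in DT vs. HU without HU1 or HU3 (adjusted p up to 0.0623). With a term for scan day the difference in DT vs. HU was −0.76 (adjusted p = 0.399). That call was also lost with a term for chip lot (−0.62, adjusted p = 0.0596) and with only the arrays compared (adjusted p = 0.0567). The call in DT vs. DU was lost with only the arrays compared as well (adjusted p = 0.154). The difference of the tungstate effects in diabetic and healthy rats was −0.48 for Gstm5 (adjusted p = 0.271). The stellate cell and matrix markers given above had median log2 differences of −0.36 in DT vs. DU and −0.45 in DT vs. HU, and their part in the Gstm5 result was not tested.

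The other 12 measured transferases of this class were not called. Gsto1, the omega class enzyme with thiol transferase activity, averaged 9.90 ± 0.19 in DT, 9.47 ± 0.07 in DU, 9.36 ± 0.12 in HT and 9.50 ± 0.09 in HU (SD, n = 3 each), a log2 difference of 0.43 in DT vs. DU (adjusted p = 0.0756). Gstz1, which isomerizes maleylacetoacetate in tyrosine breakdown, had a log2 difference of 0.53 in DT vs. HU (adjusted p = 0.0635). Of the mu class genes beside Gstm5, Gstm2 averaged 8.30 ± 0.09 in DT, 7.92 ± 0.11 in DU and 8.28 ± 0.07 in HU. The DU pools of Gstm1, Gstm2 and Gstm7 lay below the HU pools without overlap, with adjusted p above 0.05 in each. Those of the alpha class genes Gsta3 and Gsta4 lay above the HU pools without overlap, also uncalled. Among all 16 transferases, 4 were higher and 4 lower without overlap in DU vs. HU (50%). Over all probe sets 29.4% had no overlap there, 12.5% higher and 16.9% lower. The transferases of 1 class are close in sequence, and probe sets of the mu and alpha classes may also detect their relatives. Gsta3 and Gstm3 were among the dimmest 30% of probe sets.

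None of the 3 microsomal transferases, membrane proteins that also act on lipid peroxides or leukotriene precursors, was called. Mgst2, with the smallest p of them, was at 7.67, 7.38 and 7.33 in DT, 6.81, 7.23 and 6.98 in DU, 7.42, 7.28 and 7.18 in HT and 7.45, 7.32 and 7.36 in HU. Its DU pools lay below the DT and HU pools, and the log2 difference was 0.45 in DT vs. DU (adjusted p = 0.110) and −0.37 in DU vs. HU (adjusted p = 0.103). Mgst1 and Mgst3 had differences of −0.15 and −0.22 in DU vs. HU, and their DT and DU pools overlapped.

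**Figure D2:**
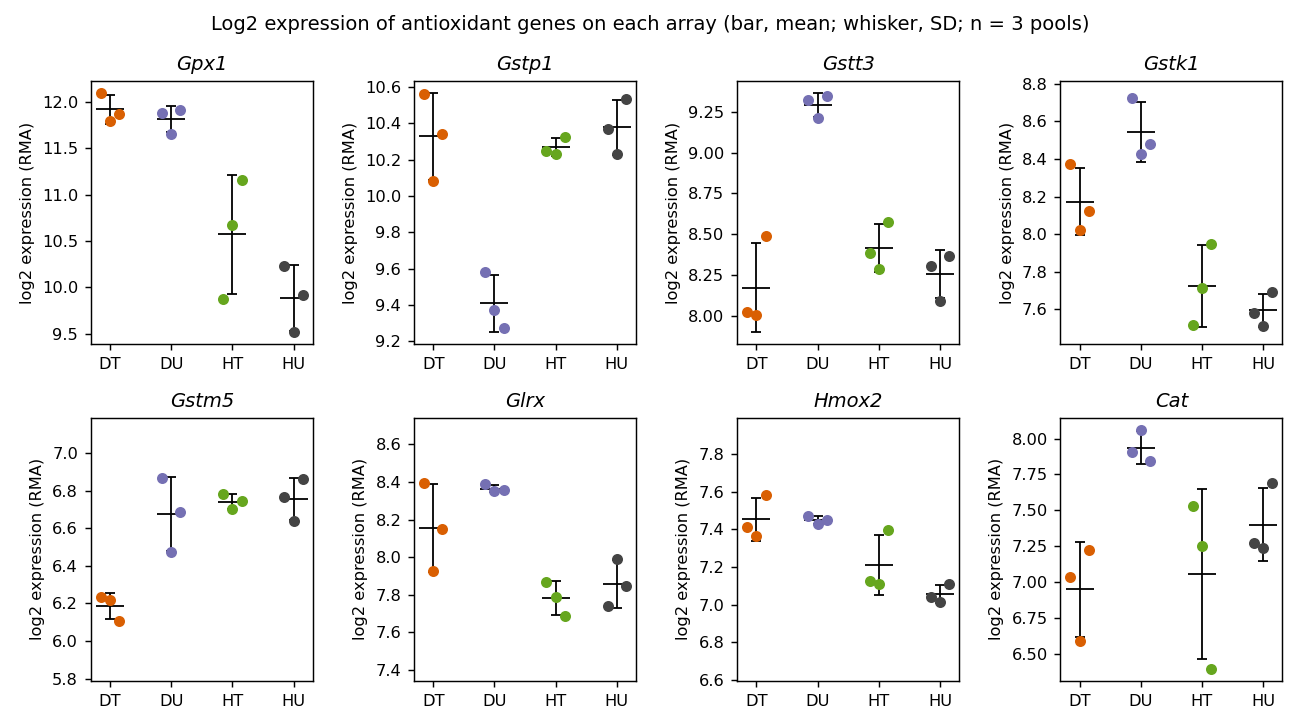
Log2 expression (y axis, its range differing between panels) of 8 genes on each of the 12 arrays, grouped as DT, DU, HT and HU, with bars for the mean and whiskers for the SD of 3 pools. The DU pools stand alone for Gstp1 (9.27 to 9.58) and Gstt3 (9.21 to 9.35), all diabetic pools stand above the healthy ones for Gpx1 and Gstk1, and the DT pools stand alone for Gstm5 (6.10 to 6.23).

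Of the 6 genes for synthesis, reduction and breakdown of glutathione, 1 was called, in DU vs. HU (16.7%, with 3.2% over all probe sets). Glrx, glutaredoxin, uses glutathione to reduce protein disulfides. It read 8.39, 7.93 and 8.15 in DT, 8.39, 8.35 and 8.36 in DU, 7.87, 7.79 and 7.69 in HT and 7.74, 7.99 and 7.85 in HU. The DU pools lay close together and above all healthy pools, while the DT pools overlapped both DU and HU. Glrx in DU was 1.42-fold above HU (0.51 ± 0.11, adjusted p = 0.0245), and the log2 difference in DT vs. DU was −0.21 (adjusted p = 0.583). A second, dimmer Glrx probe set gave 0.48 in DU vs. HU (adjusted p = 0.00528) and, unlike the first, was called in DT vs. DU (−0.37, adjusted p = 0.0445). The call of the first in DU vs. HU was lost with a term for chip lot (0.56, adjusted p = 0.082) and in 5 of the 12 fits without 1 array (DU1, DU2, DU3, HU1 or HU3, adjusted p up to 0.103), and within chip lot 1 the difference was 0.52.

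The enzymes of glutathione synthesis did not pass the test in any comparison. Gclc and Gclm are the catalytic and modifier subunits of glutamate-cysteine ligase, the rate-limiting step, and Gss completes the peptide. Gclc averaged 6.67 ± 0.16 in DT, 6.52 ± 0.09 in DU, 6.41 ± 0.16 in HT and 6.47 ± 0.13 in HU, and the interval of its log2 difference ran from −0.18 to 0.28 in DU vs. HU and from −0.08 to 0.39 in DT vs. DU. Gclm was among the dimmest 30% of probe sets. Gsr, which reduces oxidized glutathione, had a log2 difference of 0.09 in DU vs. HU. Ggt1, the surface enzyme that starts glutathione breakdown, was higher in the 3 DT pools (10.83 to 11.02) than in the 3 DU pools (10.47 to 10.59) without overlap, a log2 difference of 0.38 (adjusted p = 0.253).

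Catalase and the superoxide dismutases had no called gene, although 3 of the 4 (75%) had an unadjusted p under 0.05 in DT vs. DU and 3 in DU vs. HU, with 9.89% and 20.2% over all probe sets. Cat, which breaks down hydrogen peroxide in peroxisomes, was at 7.03, 6.59 and 7.23 in DT, 7.91, 8.06 and 7.84 in DU, 7.53, 7.25 and 6.39 in HT and 7.27, 7.24 and 7.69 in HU. The DU pools were the highest of the 12, the DT pools lay below the DU and HU pools without overlap, and the HT pools spread over more than 1 log2 unit. The log2 difference in DT vs. DU was −0.99 ± 0.24 (1.99-fold, adjusted p = 0.0784). It passed the threshold without the third HT pool (adjusted p = 0.00873), which enters through the shared estimate of the spread, and with a term for scan day (−1.10, adjusted p = 0.0273). Within scan day 1, chip lot 1 and chip lot 3 it was −1.10, −1.18 and −0.62.

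Sod1, the cytosolic copper and zinc dismutase, averaged 9.63 ± 0.18 in DT, 9.99 ± 0.11 in DU, 9.75 ± 0.04 in HT and 9.77 ± 0.04 in HU, with a log2 difference of −0.36 in DT vs. DU (adjusted p = 0.115). Sod3, the extracellular form, had −0.37 in the same comparison (adjusted p = 0.297). The median of the stellate cell and matrix markers was −0.36 there, and their part in the Sod1 and Sod3 differences was not tested. Sod2, the mitochondrial manganese form, had 0.05 in DT vs. DU and −0.30 in DU vs. HU, where its arrays did not overlap.

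The peroxiredoxins and sulfiredoxin (Srxn1), which repairs overoxidized peroxiredoxins, had no called gene among 6 measured. Prdx3, the mitochondrial form, had the smallest p. It was at 8.63, 8.57 and 8.45 in DT, 8.87, 8.61 and 8.94 in DU, 8.12, 8.42 and 8.48 in HT and 8.47, 8.20 and 8.47 in HU. The DU pools lay above the HU pools with a log2 difference of 0.42 (adjusted p = 0.0714), and the DT pools overlapped the DU pools. Prdx4, the form of the endoplasmic reticulum, was at 12.63 to 12.81 in DU and 12.90 to 12.97 in HU without overlap, a log2 difference of −0.20. The 6 genes lay between −0.26 and 0.23 in DT vs. DU and between −0.15 and 0.22 in HT vs. HU.

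The group of Nrf2, its classical targets and the heme oxygenases held 4 genes. In DU vs. HU, 1 was called (25%, with 3.2% over all probe sets), namely Hmox2, the constitutive heme oxygenase. It was at 7.41, 7.37 and 7.58 in DT, 7.47, 7.43 and 7.45 in DU, 7.13, 7.11 and 7.40 in HT and 7.04, 7.01 and 7.11 in HU. All diabetic pools lay above the HU pools, and 1 HT pool reached the level of the diabetic pools. The log2 difference was 0.39 ± 0.09 in DU vs. HU (1.31-fold, adjusted p = 0.0327), 0.40 ± 0.09 in DT vs. HU (adjusted p = 0.0503) and lay between −0.19 and 0.20 (95% interval) in DT vs. DU. The call in DU vs. HU was lost with a term for chip lot (0.27, adjusted p = 0.193) and in the 6 fits without 1 of the DU or HU arrays (adjusted p up to 0.112), and within chip lot 1 the difference was 0.34.

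Nfe2l2, which encodes Nrf2, was at 7.04, 6.67 and 6.81 in DT, 7.53, 7.43 and 7.13 in DU, 6.57, 6.78 and 6.16 in HT and 6.84, 6.70 and 6.99 in HU. The DU pools were the highest of the 12, with log2 differences of −0.52 in DT vs. DU (adjusted p = 0.182) and 0.52 in DU vs. HU (adjusted p = 0.0848). The second passed without the third HT pool (adjusted p = 0.0387). The classical Nrf2 targets Hmox1, the inducible heme oxygenase, and Nqo1, a quinone reductase, were not called. Hmox1 averaged 6.96 ± 0.28 in DT, 6.98 ± 0.04 in DU, 6.93 ± 0.10 in HT and 6.70 ± 0.33 in HU, and Nqo1 averaged 7.38 ± 0.08, 7.52 ± 0.21, 7.30 ± 0.24 and 7.57 ± 0.21 in the same groups. For Nqo1 the interval of the log2 difference in DU vs. HU ran from −0.35 to 0.24, and for Hmox1 from −0.05 to 0.62.

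Whether tungstate acted differently in diabetic and healthy rats was tested as DT vs. DU minus HT vs. HU. Diabetic rats took in more tungstate per day, so intake and diabetes cannot be told apart in this term. Of all probe sets 0.422% were called, 0.271% higher and 0.151% lower, and of the 45 genes 2 were (4.44%). Gstp1 had a difference of 1.03 ± 0.17 (adjusted p = 0.0186), with 0.92 in diabetic and −0.11 in healthy rats. Gstt3 had −1.28 ± 0.18 (adjusted p = 0.00468), with −1.12 in diabetic and 0.16 in healthy rats. An unadjusted p under 0.05 was found for 9 of the 45 genes (20.0%), with 8.75% over all probe sets. The median over the genes was −0.13, beside 0.00 over all probe sets.

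**Figure D3:**
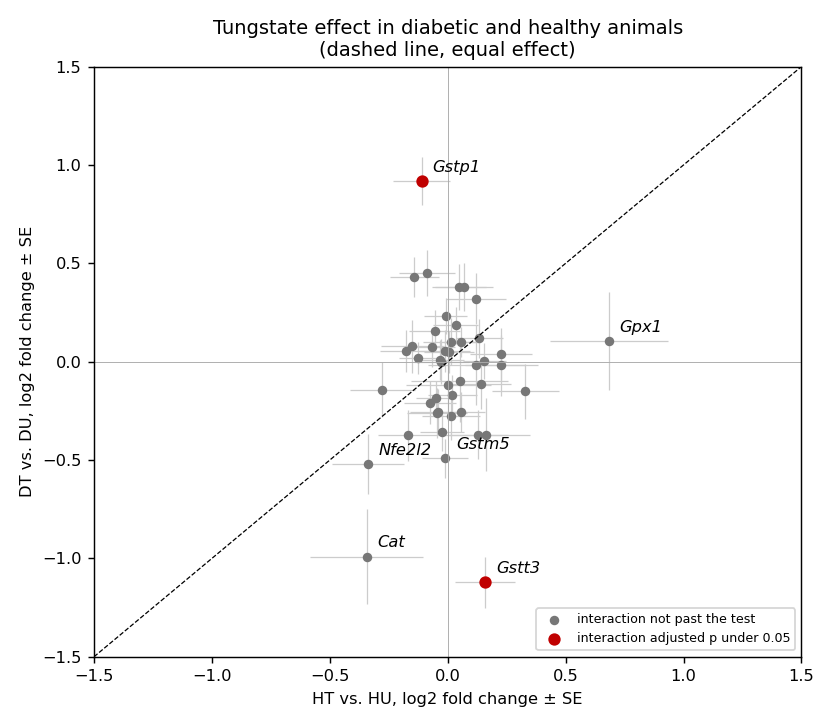
Log2 fold change on tungstate in diabetic rats (DT vs. DU, y axis) against that in healthy rats (HT vs. HU, x axis) for the 45 measured genes, with SE bars and a dashed line of equal effect. Gstp1 and Gstt3, in red, lie far from the line at 0.92 and −1.12 on the y axis and near 0 on the x axis.

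Further genes of the same chemistry were taken from 6 lists with 93 measured genes. Of these, 14 (15.1%) were called in DU vs. HU or DT vs. DU, where 3.7% of all probe sets were called in either. These lists too were chosen with earlier results of these data known, so the shares are no test of them. Of 23 genes for cysteine supply and glutathione turnover, 2 were higher and 2 lower in DU vs. HU (17.4%, with 3.2% over all probe sets). In DT vs. DU, 3 were higher and 1 lower (17.4%, with 1.12% over all probe sets). Anpep and Dpep1, surface peptidases that act after Ggt1 on the products of glutathione, exceeded their DU levels 2.97-fold and 1.59-fold in DT (log2 differences 1.57 and 0.67, adjusted p = 1.64e-05 and 0.000131). Both were lower in DU than in HU (−0.78 and −0.42, adjusted p = 0.00474 each). Mat1a, which makes S-adenosylmethionine at the head of the route to cysteine, was in DT 1.95-fold below DU (adjusted p = 0.031) and in DU 2.27-fold above HU (adjusted p = 0.00495). Ahcy, a later enzyme of that route, was 1.95-fold higher in DU than in HU (adjusted p = 0.00107), with a log2 difference of −0.44 in DT vs. DU (adjusted p = 0.193).

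Of 15 thioredoxin system and repair genes, 1 was higher and 1 lower in DU vs. HU (13.3%) and 1 was lower in DT vs. DU (6.67%). Txnip, the inhibitor of thioredoxin, was in DT 4.70-fold below DU (adjusted p = 2.02e-05) and in DU 5.95-fold above HU (adjusted p = 4.31e-06). Of 17 regulators and further targets of Nrf2, 2 were higher and 1 lower in DU vs. HU (17.6%, beside the same 3.2%). In DT vs. DU, 1 was lower (5.88%, beside the same 1.12%). Cbr1, a carbonyl reductase, was in DT 4.44-fold below DU (adjusted p = 1.04e-06) and in DU 5.13-fold above HU (adjusted p = 2.98e-07). Ephx1, an epoxide hydrolase, was 1.63-fold higher in DU than in HU (adjusted p = 0.0145).

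Of 13 genes for the synthesis and transport of selenoproteins, the family of Gpx1, 1 was lower in DU vs. HU (7.69%, with 3.2% of all probe sets called). None was called in DT vs. DU, where 2 (15.4%) had an unadjusted p under 0.05, with 9.89% over all probe sets. The gene lower in DU was Selenop, the plasma selenium carrier, with 12.01 ± 0.32 in DU and 12.76 ± 0.18 in HU (adjusted p = 0.0148). Of 15 oxidant-producing enzymes, 1 was lower in DU vs. HU (6.67%, with 3.2% over all probe sets). None was called in DT vs. DU, nor had any there an unadjusted p under 0.05. The lower gene was Maob, a mitochondrial amine oxidase that releases hydrogen peroxide, with 5.44 ± 0.05 in DU and 6.23 ± 0.06 in HU (adjusted p = 0.00158). Of 10 metallothionein and metal-binding genes, 2 were higher in DU vs. HU (20%, with 3.2% over all probe sets). In DT vs. DU, 1 was lower (10%, with 1.12% over all probe sets). Cp, the copper oxidase ceruloplasmin, was in DT 1.43-fold below DU (adjusted p = 0.0406) and in DU 1.65-fold above HU (adjusted p = 0.00248).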

How the data were processed

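Per the labels and the study's methods, RNA of whole pancreas was hybridized to 12 Affymetrix RAE230-A arrays, 3 per group, each with RNA pooled from 3 rats. The authors made the deposited log2 values with RMA, as run by Bioconductor's affy package (background adjustment, quantile normalization and a summary per probe set). They were taken over as deposited; the affy version was not given in the sources used here. Quantile normalization assumes like distributions on all arrays, and RMA compresses differences of dim genes. Array medians lay between 6.634 and 6.701 and correlations between arrays between 0.976 and 0.995. An array carries no read depth, so the precision is set by the number of arrays.

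Of 15923 probe sets, 57 controls were left out. Of the 15866 tested, 12783 carried 1 gene symbol of the platform annotation, 312 several and 2771 none. A model with 4 group means was fitted with limma 3.58.1 in R 4.3.3, with Benjamini-Hochberg adjustment over all probe sets in each of 5 contrasts. These set DT against DU and against HU, DU and HT each against HU, and the tungstate effects in diabetic and healthy rats against each other. The script was tested on simulated arrays. Scan day and chip lot came from the deposited array records.

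The listed genes, the further lists and the cell type markers were chosen with earlier results of these data known. Values on every array are given for genes called in any contrast and for the gene with the smallest p of each role without one. The other listed genes given with group values were added after these were seen. Of the further lists, the 10 called genes with the smallest adjusted p are named. The alternatives were quantile normalization and median centring of the deposited values, leaving out the dimmest 30% of probe sets, a fit on the 6 arrays of a comparison, limma's trend and robust options, a block for scan day, for chip lot or for replicate number, a B-statistic above 0 (prior proportion 0.01), the mean of a gene's probe sets, and each array left out in turn. Leaving out the 3 arrays of chip lot 3 together was added after seeing the data. Promoters were taken from RefSeq on GRCr8, and protein sequences were not used here. The study's methods give one tungstate dose throughout, unlike the 2 steps of the labels.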

Additional observations from a re-analysis of the deposited data

Results flagged for a closer look

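For 2 of the 45 genes the effect of tungstate differed between diabetic and healthy rats by the interaction term of the limma fit. Daily tungstate intake was higher in the diabetic rats, and the term cannot separate it from diabetes. Gstp1 had a log2 effect of 0.92 in diabetic rats and −0.11 in healthy rats, a difference of 1.029 (adjusted p = 0.0186), higher in all 3 DT pools than in any DU pool, while the HT and HU pools overlapped. Its adjusted p ranged from 0.0051 to 0.061 when single arrays were left out and was above 0.05 without DU2, HT1, HT2, HU1 or HU3. Gstt3 had −1.12 in diabetic rats and 0.16 in healthy rats, a difference of −1.28 (adjusted p = 0.00468), lower in all 3 DT pools than in any DU pool, and it kept its call without any single array (adjusted p up to 0.0186). Within chip lots, the Gstp1 effect was 0.84 (lot 1) and 1.07 (lot 3) in diabetic rats and −0.06 (lot 2) in healthy rats, and the Gstt3 effect was −1.25, −0.86 and 0.14 in the same lots. No chip lot held all 4 groups. Groups of 3 pools are too small for a test of outlying arrays.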

How the results depend on the processing

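Median centring, quantile normalization, the filter on dim probe sets and limma's trend and robust options gave the same counts of called genes, 3 in DT vs. DU, 6 in DU vs. HU, 3 in DT vs. HU, 0 in HT vs. HU and 2 in the interaction, and no called difference reversed its sign under any alternative run. With a term for scan day the counts were 0 in DU vs. HU, 0 in DT vs. HU and 1 in the interaction (Gstt3), and 4 in DT vs. DU, where Cat (−1.10, adjusted p = 0.0273) and Gsta1 (−1.02, adjusted p = 0.00737) were called and Gstp1 was not. That fit rests on DT1 and DT2 vs. DU1 in DT vs. DU. With a term for chip lot DT vs. HU had 1 call (Gpx1) and DU vs. HU 4. With only the arrays compared DT vs. HU had 1, and Nfe2l2 was gained in DU vs. HU (adjusted p = 0.0478). In DT vs. DU that fit gained Cat (adjusted p = 0.0342) and lost Gstm5 (adjusted p = 0.154). With the mean of a gene's probe sets Hmox2 was gained in DT vs. HU (adjusted p = 0.047). Without the 3 arrays of chip lot 3, DT vs. DU had 5, of which 2 were shared with the full fit (Gstp1 and Gstt3), DU vs. HU had 8, with Gsta1, Gstm2 and Nfe2l2 gained and Glrx lost, DT vs. HU had 5 and the interaction had 1. A B-statistic above 0 gave 4 calls in DU vs. HU, without Glrx and Hmox2, and the unchanged count in each other comparison.

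With single arrays left out, the count ranged from 4 to 8 in DU vs. HU, from 2 to 4 in DT vs. DU, from 1 to 5 in DT vs. HU and from 1 to 2 in the interaction, and stayed at 0 in HT vs. HU. DT vs. HU had 1 call without HU1 and 5 without DT3. The calls of Gpx1, Gstp1, Gstt3 and Gstk1 in DU vs. HU and of Gstp1 and Gstt3 in DT vs. DU held in all 12 such fits. Same-numbered arrays deviated from their group means with correlations from −0.287 to 0.314. Differently numbered arrays were not set beside them, so these values cannot settle whether the numbers pair the samples. The fit with the replicate number as a block gave 4 calls in DT vs. HU, where Hmox2 was gained (adjusted p = 0.0388), and changed no other call. The causes of these shifts were not tested. Pooling hides the spread between rats, and DU and HU share no scan day, so that scan day cannot be separated from diabetes within a day.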
